A study of Drosophila melanogaster with 12 samples.

Results

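Nrx-1 and the neuroligin genes Nlg1, Nlg2, Nlg3 and Nlg4 were followed in testis RNA of Drosophila melanogaster males with and without the DNA-binding protein Su(Hw). The 5 genes are among 11982 genes that the array names by a probe set of their own. They are read by 12 of its 13647 probe sets with a single gene symbol, 1 for Nrx-1, 1 for Nlg1, 3 for Nlg2, 4 for Nlg3 and 3 for Nlg4, and every one of these is described. The genes were selected on earlier values of these same arrays, in which Nrx-1 and a probe set of Nlg2 were higher in each null genotype than in each wild-type stock. Differences between nulls and wild types are therefore descriptions for these genes, and so are the counts of them that pass the threshold used for all probe sets, from which nothing is read. Tests are read only for the contrast of the 2 wild-type stocks and for that of the 2 nulls.

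Neurexins are adhesion proteins of the presynaptic membrane, and neuroligins are their best-known partners on the cell across the synapse. Neuroligins bind neurexin through an outer domain that resembles acetylcholinesterase but lacks its catalysis. Fly Nrx-1 and the neuroligins are known mainly from the brain and from the larval neuromuscular junction, where they shape the number, size and apposition of synaptic contacts. Su(Hw), a zinc-finger protein best known for the insulator of the gypsy retrotransposon, is also known as a repressor of neuronal genes in the fly ovary.

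Each of 4 genotypes was measured on 3 arrays, which the labels call biological replicates. RNA of every array came from about 100 pairs of testes of males aged 3 days, so a value is a mean over many flies. Canton S is a common wild-type laboratory strain. BL15598 is wild type for su(Hw), has the alleles y[1] and w[67c23], and carries the P element insertion P{EPgy2}Amt[EY02782]. A2663/2 has that same insertion and the y and w alleles of BL15598, together with su(Hw)[A2663] over su(Hw)[2]. 2/v carries su(Hw)[2] over su(Hw)[v] with y[1], w[67c23], ct[6] and f[1], and no wild-type stock with its own markers was measured. Both nulls therefore share allele 2, and Canton S alone lacks the y and w alleles that the other 3 genotypes have. The arrays read whole testes, in which fewer cells of a type and less RNA per cell cannot be told apart.

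Signals are the deposited intensities on a linear scale, and array medians lay between 190.2 and 242. The median signal of the 183 control probe sets was 20.4, and 8 of the 12 neurexin and neuroligin probe sets were above that level on all 12 arrays. By their mean log2 signal 11 of the 12 exceeded it, Nlg3 1628819_at being the exception. The targeted gene itself had signals of 864 to 1544 on the 6 wild-type arrays and of 19.2 to 89.6 on the 6 null arrays, so it followed the labels. Over all 18769 probe sets tested, 1664 were higher and 864 lower in the nulls, so 65.8% of calls were higher. That share was 37.1% after median centring of the arrays and 52.1% after quantile normalization, and median centring moved the median log2 difference of all probe sets from 0.05 to -0.12. A call is a Benjamini-Hochberg adjusted p under 0.05 from limma, which fits the log2 signals of all probe sets with a shared estimate of their spread.

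Nrx-1 was about 4 times as high in both nulls as in both wild-type stocks. In the wild types the signals of its probe set 1625623_at were 253, 315 and 211 in Canton S and 239.7, 161 and 282 in BL15598. In the nulls they were 1025, 969 and 1033 in A2663/2 and 1188, 913 and 814 in 2/v. All 6 null arrays lay far above all 6 wild-type arrays, and the lowest null array, at 814, was well over the highest wild-type array, at 315. The means were 259.5 ± 52.5 (SD, n = 3) in Canton S, 228 ± 61.6 in BL15598, 1009 ± 35.0 in A2663/2 and 972 ± 194 in 2/v. The nulls exceeded the wild types 4.13-fold (log2 difference 2.05, SE 0.165, 95% interval 1.68 to 2.42). Against its matched stock BL15598, A2663/2 was higher by 2.19 on the log2 scale, and 2/v was higher than Canton S by 1.91. BL15598 and Canton S overlapped in Nrx-1, with a log2 difference of -0.21 (95% interval -0.73 to 0.31, limma adjusted p = 0.681). The 2 nulls overlapped as well, 2/v differing from A2663/2 by -0.07 on the log2 scale (95% interval -0.60 to 0.45, limma adjusted p = 0.979).

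**Figure D1:**
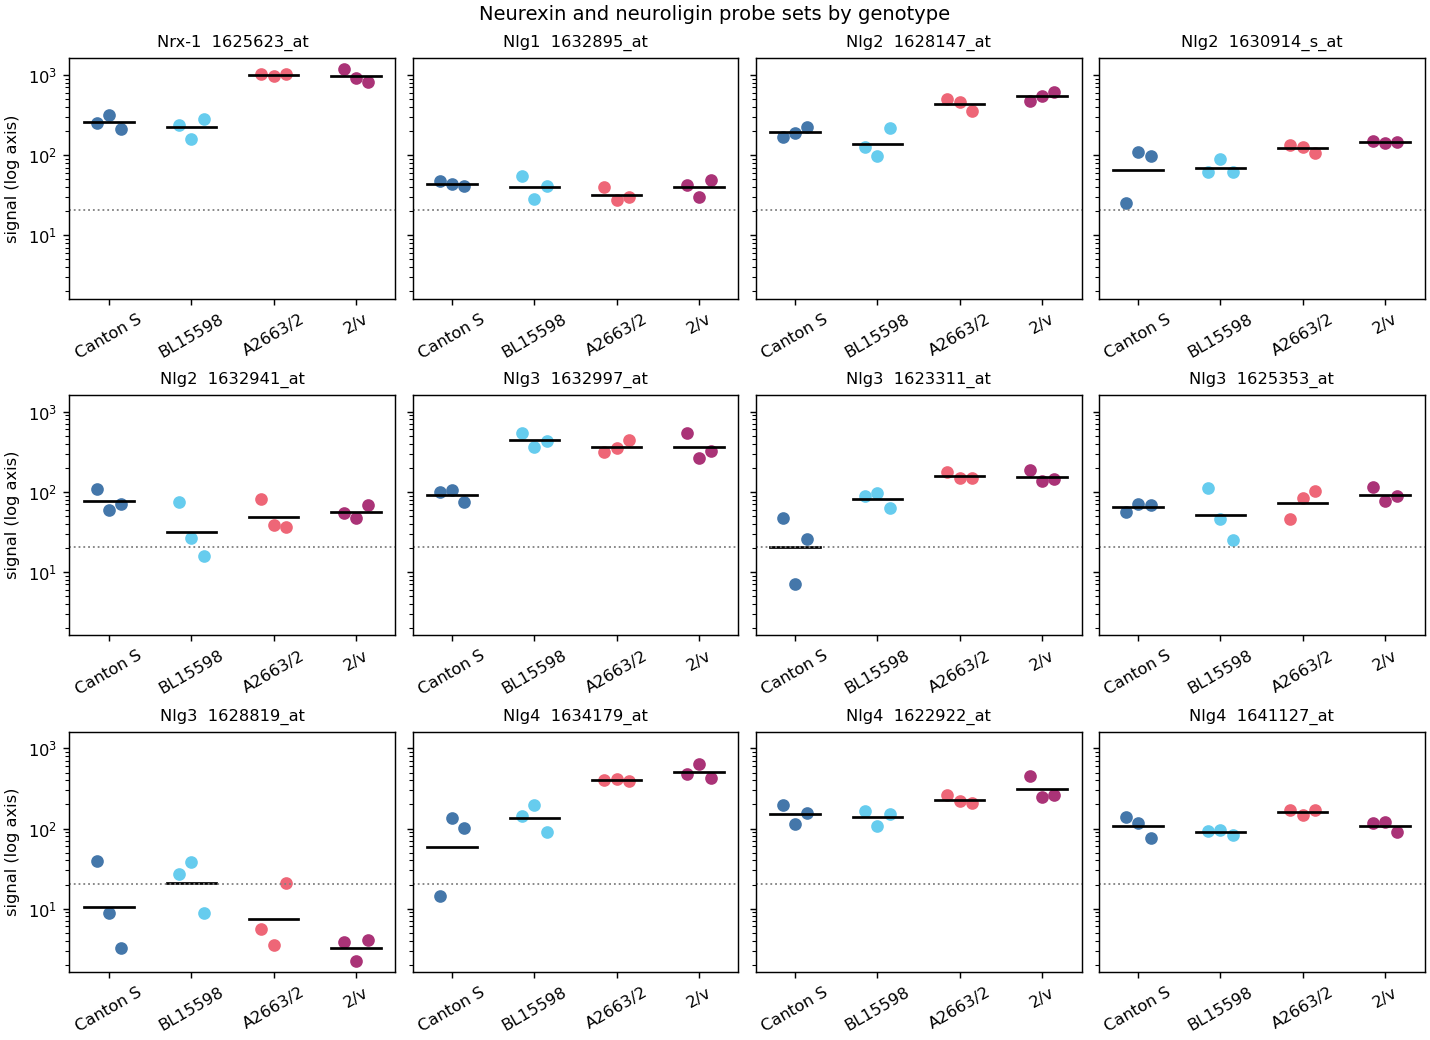
Signal of each neurexin and neuroligin probe set on each of the 12 arrays, on a log axis, with 3 points per genotype in replicate order, a bar at their geometric mean and a dotted line at the control level of 20.4. Nrx-1 and Nlg2 1628147_at separate both nulls from both wild types, whereas Nlg3 1632997_at separates Canton S from the other 3 genotypes.

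Nlg2 encodes a neuroligin reported on both sides of the fly neuromuscular synapse. Its probe set 1628147_at gave 169.9, 188 and 221 in Canton S and 128, 97.2 and 217 in BL15598. It gave 504, 454 and 354 in A2663/2 and 475, 545 and 607 in 2/v. The lowest null array again exceeded the highest wild-type array, though the gap was narrower than for Nrx-1. The nulls were 2.96-fold higher (log2 difference 1.56, SE 0.193, 95% interval 1.13 to 2.00). The log2 difference was 1.64 for A2663/2 against BL15598, 1.17 for A2663/2 against Canton S, 1.49 for 2/v against Canton S and 1.96 for 2/v against BL15598, and these 4 pairs share their arrays. Neither BL15598 against Canton S (log2 -0.47, 95% interval -1.08 to 0.15, limma adjusted p = 0.376) nor 2/v against A2663/2 (log2 0.32, 95% interval -0.30 to 0.93, limma adjusted p = 0.849) was called.

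Neither of the further Nlg2 probe sets separated the groups in this way. Probe set 1630914_s_at read 25.2, 108 and 98.0 in Canton S, 62.1, 89.8 and 60.9 in BL15598, 135, 127 and 107 in A2663/2 and 149, 141 and 144 in 2/v. The 2/v arrays were above all wild-type arrays, while 1 array of A2663/2, at 107, lay just under the highest Canton S array, at 108. Its log2 difference of nulls against wild types was 0.99 (SE 0.332, 95% interval 0.24 to 1.74), outside the threshold. It came inside the threshold with 20 added to each intensity, with a trended prior, and without Canton S replicate 1, the array at 25.2, where the difference was 0.65, or replicate 2, where it was 1.18. Probe set 1632941_at ranged from 36.3 to 80.6 in the nulls and from 15.9 to 107 in the wild types. Its groups overlapped throughout, with a log2 difference of 0.08 (SE 0.377, 95% interval -0.76 to 0.93). The log2 difference of 1632941_at from 1628147_at, taken within each array, was -1.33 ± 0.57 (SD, n = 3) in Canton S, -2.14 ± 1.51 in BL15598, -3.17 ± 0.47 in A2663/2 and -3.27 ± 0.23 in 2/v. Levels of different probe sets cannot be compared. The family was selected on 1628147_at being high in both nulls, so any flat probe set minus it falls in the nulls. Probe set 1632941_at was also dim, with 1 BL15598 array under the control level. The movement across genotypes is therefore a description and was not tested. Where the probes lie in the transcripts was not used here.

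Nlg3, another neuroligin known from the fly brain and neuromuscular junction, separated the wild-type stocks from each other. Its probe set 1632997_at read 98.6, 104 and 75.1 in Canton S, and 546, 363 and 429 in BL15598. The nulls read 315, 350.4 and 449 in A2663/2 and 539, 266 and 323 in 2/v. Canton S was the low genotype, with each of its arrays under every array of the other 3 genotypes, which overlapped one another. The means were 92.7 ± 15.6 (SD, n = 3) in Canton S, 446 ± 92.8 in BL15598, 371 ± 69.5 in A2663/2 and 376 ± 144 in 2/v. BL15598 exceeded Canton S 4.79-fold (log2 difference 2.26, SE 0.277, 95% interval 1.64 to 2.88, limma adjusted p = 0.000772), with 3 of 3 BL15598 arrays above all Canton S arrays. Set against Canton S, A2663/2 was higher by 2.00 and 2/v by 1.97 on the log2 scale. Set against BL15598, the log2 differences were -0.26 for A2663/2 and -0.29 for 2/v. Averaging both wild types gave a log2 difference of 0.85 (SE 0.196) with overlapping groups, so that this average mixes a low and a high stock. Canton S differs from the other 3 genotypes in more than the y and w alleles, and these differences cannot be told apart here.

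A second probe set of Nlg3, 1623311_at, was low in Canton S and higher in the nulls than in either stock. Its signals were 46.6, 7.11 and 25.8 in Canton S and 87.5, 95.6 and 63.0 in BL15598, and 1 Canton S array was under the control level. They were 176, 150.4 and 149 in A2663/2 and 186, 138 and 146 in 2/v. The order was Canton S, BL15598 and then both nulls, with no overlap at the first 2 steps and overlap between the nulls. The log2 difference of nulls against wild types was 1.95 (SE 0.389, 95% interval 1.07 to 2.82), an average over a lower and a higher stock. Against Canton S it was 2.95 for A2663/2 and 2.93 for 2/v. Against BL15598 it was 0.97 for A2663/2 (95% interval -0.27 to 2.20) and 0.94 for 2/v (95% interval -0.29 to 2.18). BL15598 exceeded Canton S by 1.98 on the log2 scale (SE 0.550, 95% interval 0.75 to 3.22), just outside the call (limma adjusted p = 0.054). That difference was called after quantile normalization, after a filter on dim probe sets, with 20 added to each intensity, and with a trended prior. Without the Canton S array at 7.11 it was 1.22 and called, and without the Canton S array at 46.6 it was 2.58 and called.

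The remaining probe sets of Nlg3 separated no genotype from all others. Probe set 1625353_at ranged from 45.5 to 114 in the nulls and from 25.2 to 113 in the wild types, with a log2 difference of 0.51 (SE 0.348, 95% interval -0.27 to 1.29). Probe set 1628819_at was under the control level on 8 of 12 arrays, including all 3 of 2/v, and no fold is given for it. Within arrays, 1625353_at minus 1632997_at was -0.51 ± 0.34 (SD, n = 3) on the log2 scale in Canton S, against -3.11 ± 0.92 in BL15598, -2.33 ± 0.40 in A2663/2 and -1.98 ± 0.24 in 2/v. The low Canton S signal of 1632997_at was thus not seen with 1625353_at, whose Canton S arrays read 55.9, 70.0 and 68.1.

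Nlg4 encodes a neuroligin known in the fly from clock neurons and sleep. On probe set 1634179_at the wild types read 14.3, 137 and 102 in Canton S and 144, 197 and 90.1 in BL15598. The nulls read 406, 412 and 387 in A2663/2 and 474, 633 and 427 in 2/v. All null arrays were above all wild-type arrays, and the 3 arrays of 2/v were also above those of A2663/2. The nulls were 5.04-fold higher (log2 difference 2.33, SE 0.504, 95% interval 1.20 to 3.47). Against Canton S the log2 difference was 2.78 for A2663/2 and 3.11 for 2/v. Against BL15598 it was smaller, 1.55 for A2663/2 (95% interval -0.05 to 3.16) and 1.88 for 2/v (95% interval 0.28 to 3.49). The spread was wide, with 1 Canton S array under the control level. Without that array the log2 difference of nulls against wild types was 1.83. The log2 difference between the nulls, 2/v minus A2663/2, was 0.33 (95% interval -1.27 to 1.93, limma adjusted p = 0.959).

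The 2 further probe sets of Nlg4 gave smaller differences. Probe set 1622922_at read 197, 113 and 158 in Canton S, 167, 109 and 152 in BL15598, 265, 219 and 209.9 in A2663/2 and 449, 248 and 263 in 2/v. Its null arrays were all above its wild-type arrays by a small margin, with a 1.82-fold difference (log2 0.87, SE 0.200, 95% interval 0.41 to 1.32). Probe set 1641127_at read 139, 118 and 75.7 in Canton S, 92.5, 96.8 and 84.2 in BL15598, 169, 148 and 169 in A2663/2 and 116, 121 and 90.4 in 2/v. Only A2663/2 stood above the other genotypes on this probe set, and 2/v overlapped both wild types. Its log2 difference was 0.83 for A2663/2 against BL15598 (SE 0.214), and 0.01 for 2/v against Canton S. The nulls did not overlap, 2/v being lower by a log2 difference of -0.58 (95% interval -1.06 to -0.10), which was not called (limma adjusted p = 0.437).

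Nlg1, the neuroligin first described at the fly neuromuscular junction, was dim and similar in all genotypes. Its probe set 1632895_at read 47.1, 43.1 and 41.3 in Canton S, 55.1, 28.6 and 40.9 in BL15598, 40.3, 27.5 and 30.2 in A2663/2 and 42.6, 29.7 and 49.5 in 2/v. Canton S and A2663/2 did not overlap on this probe set, and every other pair of genotypes did. The log2 difference of nulls against wild types was -0.23 (SE 0.188, 95% interval -0.65 to 0.20).

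**Figure D2:**
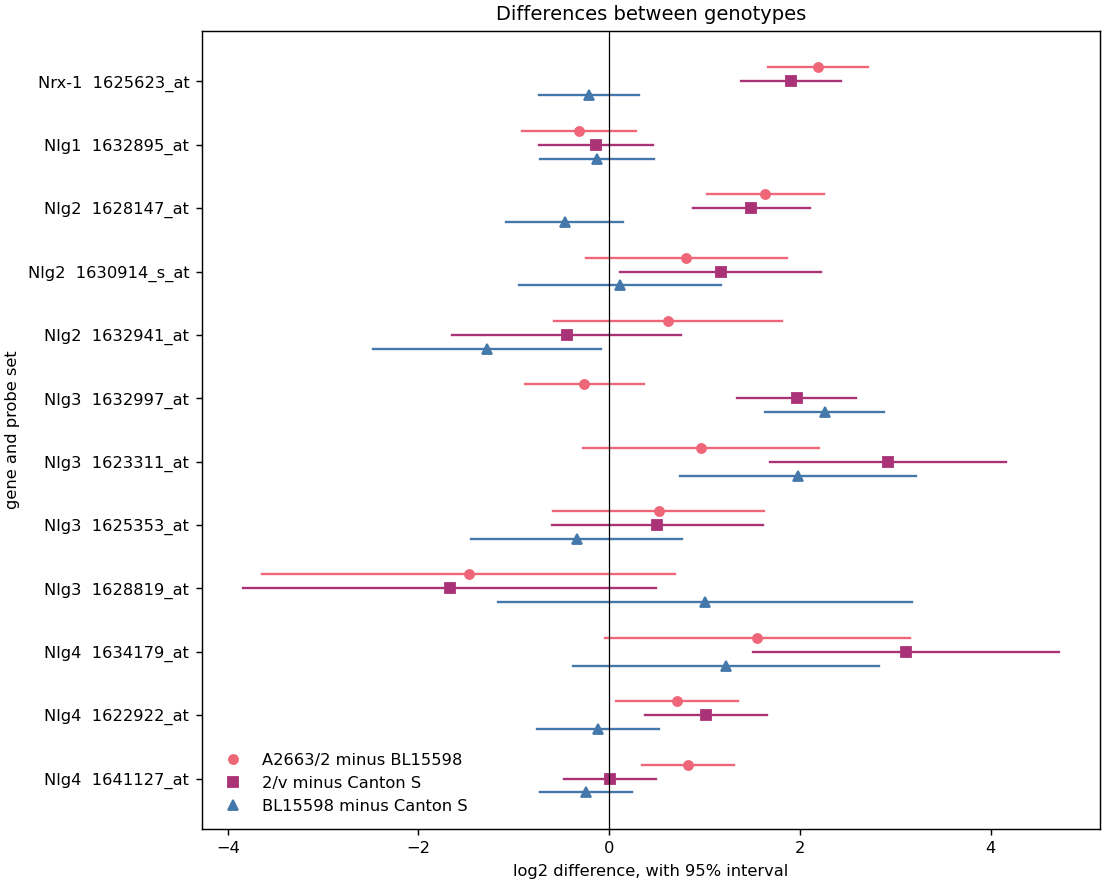
Log2 difference with its 95% interval for each probe set, for A2663/2 minus BL15598 (circles), 2/v minus Canton S (squares) and BL15598 minus Canton S (triangles). Nrx-1 and Nlg2 1628147_at are above 0 for both nulls and have intervals that include 0 between the stocks, while Nlg3 1632997_at is above 0 only in the 2 comparisons with Canton S.

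Counted over the 12 probe sets, 6 were called higher in the nulls and 0 lower, against a background of 8.87% of all probe sets called higher and 4.6% called lower. The 6 were Nrx-1, Nlg2 1628147_at, Nlg3 1632997_at and 1623311_at, and Nlg4 1634179_at and 1622922_at. By pair, 5 were called higher in A2663/2 against Canton S (background 6.36%), 2 in A2663/2 against BL15598 (background 4.36%), 5 in 2/v against Canton S (background 6.84%) and 3 in 2/v against BL15598 (background 6.25%). The 2 called in all 4 pairs were Nrx-1 and Nlg2 1628147_at, where 1.52% of all probe sets were. Nlg2 1628147_at lost its call for A2663/2 against Canton S after median centring or quantile normalization and without replicate 1 or 2 of either of those genotypes, and for A2663/2 against BL15598 in the fit of those 2 genotypes alone. Nlg4 1634179_at, counted for both nulls against Canton S, lost its call for A2663/2 after quantile normalization and without any 1 of 8 arrays, namely each null array and BL15598 replicates 1 and 2. For 2/v it lost it without any 1 of the 2/v arrays, and for both nulls in fits of only the 2 genotypes compared, as did Nlg3 1623311_at. Nlg4 1622922_at, counted for 2/v against BL15598, lost that call in the fit of those 2 genotypes and without BL15598 replicate 2 or 3, A2663/2 replicate 2 or 2/v replicate 1 or 3, and it lost its call for both nulls together without A2663/2 replicate 1. Without Canton S replicate 1, Nlg2 1630914_s_at and Nlg4 1641127_at were added, which made 8 of 12 for both nulls together. All 6 null arrays were above all 6 wild-type arrays on 5 of the 12 probe sets, from 4 of the genes, against 4.43% of all probe sets. The median log2 difference over the 12 was 0.86, beside 0.05 over all probe sets. The genes were chosen knowing part of this contrast, so nothing is read from these shares.

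The contrasts that did not enter the choice gave few calls. Between the stocks, 1 of 12 probe sets was called in either direction, Nlg3 1632997_at, while 9.58% of all probe sets were. At an unadjusted p under 0.05 there were 3, the others being Nlg3 1623311_at and Nlg2 1632941_at, the latter lower in BL15598 (log2 difference -1.28, SE 0.533, limma adjusted p = 0.193). Between the nulls, limma called 0 of 12, with 0.927% of all probe sets called, and 1 of 12, Nlg4 1641127_at, had an unadjusted p under 0.05. The log2 differences of 2/v from A2663/2 ran from -1.20, for the dim Nlg3 1628819_at, to 0.42, for Nlg4 1622922_at. The half-widths of their 95% intervals were 0.481 to 2.17. A difference beyond its half-width can still miss a call after adjustment, as that of Nlg4 1641127_at did (log2 difference -0.58, limma adjusted p = 0.437). With 3 arrays each, the 0 calls therefore do not show that the nulls are equal on these probe sets.

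Nrx-1, Nlg1, Nlg3 and Nlg4 lie on chromosome arm 3R and Nlg2 lies on 2L. Nlg3 and Nlg1 are next to each other among measured genes, with 1 unmeasured gene between them in RefSeq order. Of that neighbouring pair, Nlg3 1632997_at differed 4.79-fold between the stocks whereas Nlg1 did not differ beyond its spread (log2 difference -0.13, 95% interval -0.73 to 0.47, limma adjusted p = 0.848). The next measured genes on either side of the family, leaving out its own members, were CG5377 and Pfdn5 at Nrx-1, Nha1 and Polr1F at Nlg2, alpha-Est2 before Nlg3, CG2616 after Nlg1, and CG5023 and CG17199 at Nlg4. In limma 0 of these 8 were called between nulls and wild types, beside 8.87% of all probe sets called higher and 4.6% lower. Of the 8, 4 had an unadjusted p under 0.05, and their log2 differences ran from -0.43, for alpha-Est2, to 0.50, for CG5377. CG5377, directly beside Nrx-1, came closest to a call (SE 0.147, limma adjusted p = 0.0514). Between the stocks 0 of the 8 were called, beside 9.58% of all probe sets, and 1 had an unadjusted p under 0.05. With 8 genes, these counts do not show that the neighbours were unchanged.

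Genes that work with neurexin and neuroligin were read from lists of textbook partners, in which a gene is represented by its brightest probe set. These lists were written with earlier results of these data known. Their differences and calls between nulls and wild types are therefore descriptions too. Among 16 presynaptic partners and active zone genes, 2 rose in the nulls and 0 fell, with a median log2 difference of 0.05. Over all probe sets 8.87% were called higher and 4.6% lower. The calcium channel subunit gene cac, which admits the calcium that triggers transmitter release, read 139, 170.0 and 169 in Canton S, 140.4, 191 and 139 in BL15598, 346, 403 and 419 in A2663/2 and 319, 238 and 332 in 2/v. All null arrays exceeded all wild-type arrays of cac, 2.15-fold on average (log2 difference 1.11, SE 0.127, limma adjusted p = 0.000392), and cac was called in all 4 pairs. RhoGAP100F, the fly relative of the worm synapse assembly gene syd-1 and a known partner of Nrx-1 at the active zone, was at least 4.93-fold higher in the nulls (limma adjusted p = 0.0103). Its wild-type arrays read 4.39 to 47.1, around the control level, and its null arrays read 68.3 to 176. For both nulls together against both wild types, the calls of cac and RhoGAP100F held with each array left out and under the other processing choices tried for single probe sets. In single pairs they did not always hold. For 2/v against Canton S, cac lost its call after median centring, in the fit of those 2 genotypes alone and without 2/v replicate 1 or 3. For 2/v against BL15598, cac lost it in the fit of those 2 genotypes alone. RhoGAP100F was called in only 1 pair, 2/v against Canton S, and not without any single 2/v array or without Canton S replicate 2 or 3. For A2663/2 against Canton S it gained a call with a dim filter, an offset of 20, a trended prior or those 2 genotypes alone. It also gained that call without BL15598 replicate 2 or 3. For 2/v against BL15598 it gained a call with the same filter, offset or prior, and without BL15598 replicate 3. CASK, a scaffold known to bind the tail of neurexin, was not called (log2 difference -0.33, SE 0.147, limma adjusted p = 0.200). Between the stocks 2 presynaptic genes were called, Rim, an active zone gene, and veli, a scaffold gene, both lower in BL15598, by log2 differences of -0.89 (SE 0.132, limma adjusted p = 0.00247) and -0.72 (SE 0.151, limma adjusted p = 0.0161). Their differences in the nulls depended on the stock. Rim was called lower in A2663/2 than in Canton S (log2 difference -0.50, limma adjusted p = 0.0465). It was called higher in 2/v than in BL15598 (log2 difference 0.81, limma adjusted p = 0.00406). The gene veli was called lower in A2663/2 than in Canton S (log2 difference -0.66, limma adjusted p = 0.0239), and in neither null against BL15598. Spn, which encodes a Nrx-1 binding scaffold, was at 0.03 (SE 0.261, limma adjusted p = 0.970), and brp, the active zone scaffold, at 0.57 (SE 0.247, limma adjusted p = 0.182).

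No measured gene on the postsynaptic side was called, beside 8.87% of all probe sets called higher and 4.6% lower. With 12 genes this does not set the postsynaptic list apart from all probe sets. Of 15 postsynaptic partners 12 were measured, and in limma 0 rose and 0 fell, with 2 at an unadjusted p under 0.05 and a median log2 difference of 0.04. Among them dlg1, the membrane scaffold of the fly neuromuscular junction, differed by 0.08 (SE 0.104), and the glutamate receptor subunit genes GluRIIA and GluRIIB by 0.04 (SE 0.302) and -0.64 (SE 0.259). The 4 other cholinesterase-like relatives, the adhesion genes Nrt, Glt and Gli and the acetylcholinesterase gene Ace, also gave 0 calls in limma, with 2 at an unadjusted p under 0.05. Their log2 differences ran from -0.32, for Glt, to 0.48, for Ace.

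The septate junction complex of Nrx-IV, a more distant neurexin relative of epithelia and glia, was measured for 10 of 11 genes, of which 1 rose and 1 fell. Nrx-IV itself differed by 0.02 on the log2 scale (SE 0.103, limma adjusted p = 0.916). The scaffold gene vari was 1.96-fold higher in the nulls (log2 difference 0.97, SE 0.247, limma adjusted p = 0.0289), with overlapping groups. In single pairs vari was called only against Canton S. Against BL15598 its log2 difference was 0.56 for A2663/2 (limma adjusted p = 0.434) and 0.33 for 2/v (limma adjusted p = 0.645). On vari, BL15598 also lay above Canton S on average, 182 ± 78.4 (SD, n = 3) against 83.9 ± 24.6, a difference that was not called (limma adjusted p = 0.103). The immunoglobulin-domain gene Lac fell by 0.31 on the log2 scale (SE 0.077, limma adjusted p = 0.0262). In single pairs Lac was called only in A2663/2 against BL15598 (log2 difference -0.46, limma adjusted p = 0.0356). For both nulls together, the calls of vari and Lac were lost without replicate 1 or 2 of either null. That of vari was also lost without Canton S replicate 2, and that of Lac without BL15598 replicate 2 or A2663/2 replicate 3. The limma adjusted p was between 0.0557 and 0.0685 in each case. Counted once each, 41 genes of these 4 lists were measured and 4 were called, beside backgrounds of 8.87% higher and 4.6% lower.

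**Figure D3:**
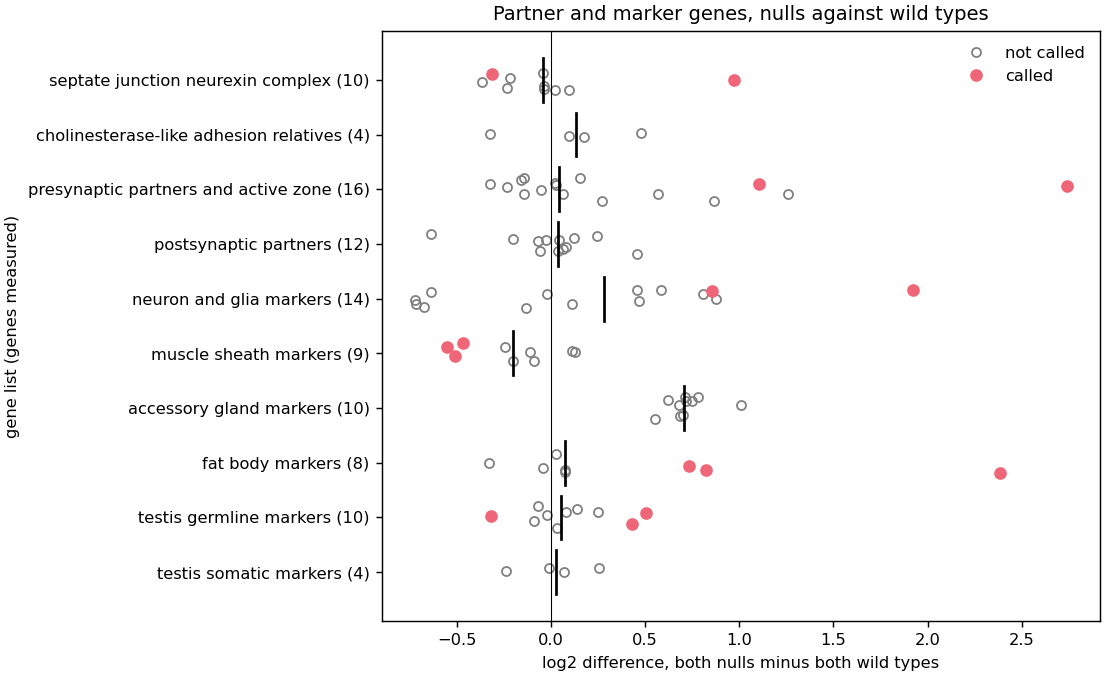
Log2 difference of both nulls minus both wild types for each measured gene of the partner and marker lists, with called genes filled and a bar at each list's median. The presynaptic list has 2 called genes, at 1.11 and 2.74, and the postsynaptic and cholinesterase-like lists have none, while the accessory gland genes all lie above 0 without a call. Over all probe sets 8.87% were called higher and 4.6% lower.

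Markers of other cells in or near a dissected testis were read on the same arrays. Their lists, too, were written with earlier results known, so their calls between nulls and wild types are descriptions. Of 14 measured neuron and glia markers 2 rose and 0 fell, beside 8.87% of all probe sets higher and 4.6% lower. Those called were nSyb, the neuronal synaptobrevin gene (log2 difference 0.86, SE 0.115), and nrv3, a sodium pump subunit gene (log2 difference 1.92, SE 0.106). The list had a median of 0.28 and ran down to -0.72, for the dim fne. Vmat, at -0.71 (SE 0.207), was just outside a lower call (limma adjusted p = 0.0502). In A2663/2 against BL15598 it was called lower (log2 difference -1.27). Between the stocks Gad1 was called, higher in BL15598 (log2 difference 3.82, limma adjusted p = 0.00755). The summed signal of that list was 5849 to 8719 on wild-type arrays and 9444 to 10281 on null arrays. Without nrv3 the sums overlapped, at 5103 to 7848 and 5984 to 6770.3. The neuronal marker elav differed by -0.02 on the log2 scale (SE 0.201, limma adjusted p = 0.966). No marker on this list was under the control level on all arrays, and 6 were on some array.

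Accessory gland genes differed in the direction of Nrx-1 but varied widely between arrays, with 0 of 10 called by limma and 0 at an unadjusted p under 0.05. Their median log2 difference was 0.71, and their summed signals were 15039 to 43673 in Canton S, 15178 to 44312 in BL15598, 32052 to 63561 in A2663/2 and 26486 to 69851 in 2/v. Of 9 muscle sheath markers 3 fell and 0 rose, and their sums were 31124 to 32837 in Canton S, 31102 to 42056 in BL15598, 27630.1 to 30422 in A2663/2 and 30061 to 31391 in 2/v. Of 8 fat body markers 3 rose, with sums of 9551 to 11526 in Canton S, 8779 to 12162 in BL15598, 9827 to 11302 in A2663/2 and 10789 to 11186 in 2/v. Germline markers of the testis, 10 of 10 measured, had 2 rising and 1 falling, and the 4 measured testis somatic markers had 0 called and 0 at an unadjusted p under 0.05. Beside these counts, 8.87% of all probe sets were called higher and 4.6% lower. In all 4 pairs 0 of the muscle, fat body and germline markers were called. The muscle gene Mf, called lower in the nulls, was at 0.04 in A2663/2 against Canton S. It was higher in BL15598 than in Canton S (log2 difference 0.67, limma adjusted p = 0.0171). In single pairs the germline gene dj was called only against Canton S. Another, aly, was lower in BL15598 than in Canton S (log2 difference -1.14, limma adjusted p = 0.00405). The part of any of these cell types in the neurexin and neuroligin differences was not tested.

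The genes most like Nrx-1 and Nlg2 over the arrays were taken by Pearson's r of log2 signals over the 12 arrays, among 8275 brighter probe sets with 1 symbol. These arrays share genotypes, and any gene that separates nulls from wild types gives a high r, so the values are descriptions. Nearest to Nrx-1 were Cyp28d1, a cytochrome P450 gene (r = 0.978), SA1, a cohesin subunit gene (r = 0.970), CG13675 (r = 0.969) and hiw, a regulator of synapse growth (r = 0.967). The gene hiw had signals of 153 ± 49.7 (SD, n = 3) in Canton S, 115 ± 13.2 in BL15598, 390.1 ± 25.8 in A2663/2 and 381 ± 50.3 in 2/v. Nearest to Nlg2 1628147_at were CG34377 (r = 0.985), CG6282 (r = 0.972), SA1 (r = 0.972) and ND-51L2, which encodes a relative of a mitochondrial complex I subunit (r = 0.963). Cyp28d1 and SA1 had larger log2 differences than Nrx-1, at 3.16 (SE 0.125) and 3.00 (SE 0.206), and hiw a smaller one, at 1.56 (SE 0.150).

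The r of Nrx-1 with the neuroligin probe sets over the 12 arrays differed between probe sets of one gene. For Nlg2 it was 0.924 on 1628147_at, on which the family was selected together with Nrx-1, 0.650 on 1630914_s_at and 0.071 on 1632941_at. For Nlg4 it was 0.816 on 1622922_at, 0.735 on 1634179_at and 0.616 on 1641127_at. For Nlg3 it was 0.630 on 1623311_at, 0.423 on 1632997_at, 0.414 on 1625353_at and -0.563 on the dim 1628819_at, and for Nlg1 it was -0.268.

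**Figure D4:**
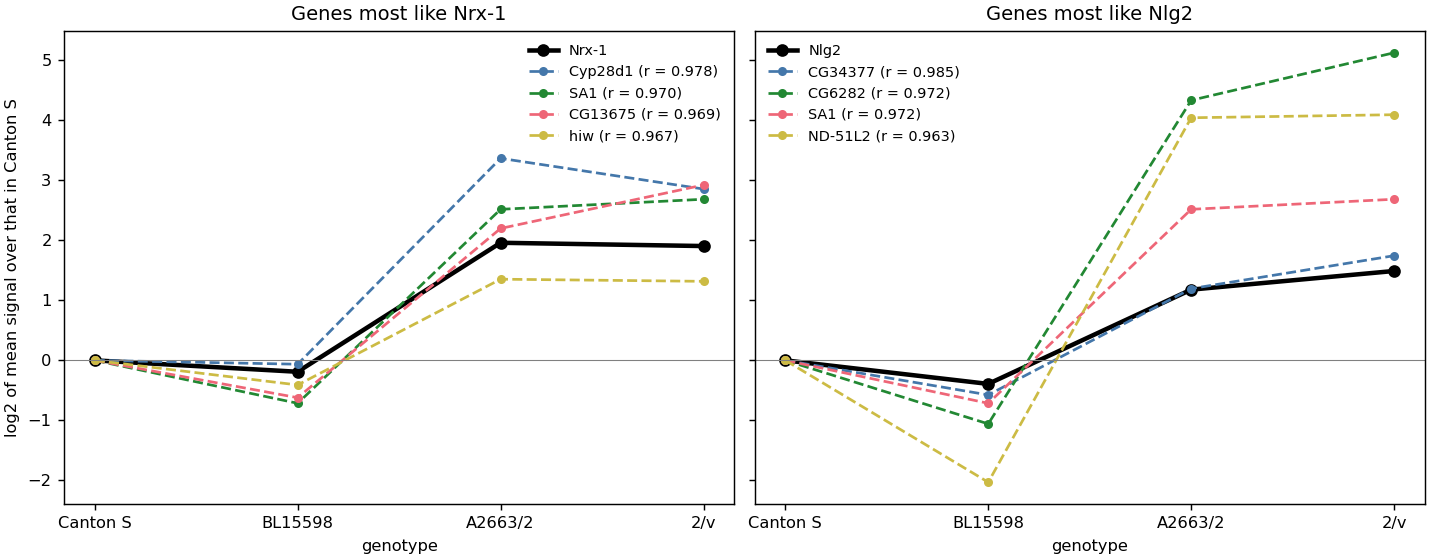
Log2 of the mean signal (n = 3 arrays) in each genotype over that in Canton S, for Nrx-1 and Nlg2 1628147_at (solid black) and the 4 genes with the highest Pearson r to each (dashed). The compared genes stay at or below the Canton S level in BL15598 and rise in both nulls. All 4 compared with Nlg2 rise further than it does, ND-51L2 and CG6282 the furthest.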

How the data were processed

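Testis RNA was amplified with the WT-Ovation Pico system, fragmented and hybridised to Affymetrix arrays, per the labels' protocols. The authors deposited 1 linear intensity per probe set and array. Per the submitters' processing notes the tools were Partek 6.5 and RMA, but every array has the same mean intensity of 1500.03 after trimming 2% of deposited values from each end, so how the values were scaled is unknown. Here the deposited intensity was converted to log2 without an offset or any further normalization. The 183 control probe sets were left out, and for the other 18769 limma 3.58.1 (R 4.3.3) estimated 1 mean per genotype, with two-sided p-values adjusted over all of them by Benjamini-Hochberg. The fit was checked on simulated data.

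Folds are ratios of geometric means. They are lower bounds where the dimmer side is under the control level of 20.4, and none is given where both sides are. Probe sets are named by the platform annotation, with symbols updated through RefSeq genes (Release 6 plus ISO1 MT), which also gave chromosome arms and neighbours. Of those tested, 13647 had 1 symbol, 402 several and 4720 none. The named genes are su(Hw), all family probe sets, the next measured gene on each side, up to 3 called genes of each partner list, and the 4 nearest in r to Nrx-1 and to Nlg2. Partner and marker genes named beyond these (CASK, Spn, brp, dlg1, Rim, veli, GluRIIA, GluRIIB, Nrt, Glt, Gli, Ace, Nrx-IV, nSyb, nrv3, elav, fne, Vmat, Gad1, Mf, dj, aly) were chosen after their values were seen. The family, the lists and the contrasts were chosen with earlier results of these data known. Alternatives were other scalings, a dim filter, an offset of 20, a trended and robust prior, a replicate block, fits on other sample sets, all probe sets of a gene, and each array left out. The number of arrays limits the precision.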

Additional observations from a re-analysis of the deposited data

Results flagged for a closer look

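The difference between nulls and wild types on Nlg3 1632997_at depended on the wild-type stock. Against Canton S every null array was higher, with log2 differences of 2.00 for A2663/2 and 1.97 for 2/v. Against BL15598 the groups overlapped and the differences were -0.26 and -0.29. The 2 effects differed by 2.26 on the log2 scale, which is by construction the difference of BL15598 from Canton S (limma adjusted p = 0.000772). Leaving out single arrays or changing the processing kept it between 2.04 and 2.40.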

How the results depend on the processing

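The counts of neurexin and neuroligin probe sets moved with the processing. Directions were followed for the differences of both nulls together against both wild types, and no called one turned. Only that of Nlg2 1632941_at, not called, spanned 0, from -0.16 to 0.39 on the log2 scale. Directions in single pairs and between the nulls were not followed. Of the 12, 6 were called in the nulls, 6 also with the replicate number as a block (replicate block), and 4 to 8 over all alternatives, with 4 when the fit took 2 groups of 6 arrays, where both Nlg3 probe sets were lost. The 2 called in all 4 pairs became 1 after median centring, quantile normalization, and fits of only the 2 genotypes compared, each time through the loss of Nlg2 1628147_at in 1 pair with A2663/2. The range was 1 to 2 over left-out arrays, with 1 without Canton S replicate 2, A2663/2 replicate 1 or A2663/2 replicate 2. Without Canton S replicate 1 it stayed at 2, but Nlg2 1628147_at lost its call against Canton S and Nlg4 1634179_at gained those against BL15598. Between the stocks 1 call became 2 after quantile normalization, the dim filter, the offset of 20 and the trended prior, and ranged from 1 to 2 over left-out arrays, with 2 without Canton S replicate 1 or 2 or BL15598 replicate 1. Between the nulls it was 0 throughout. The 4 called partner genes became 8 after median centring and 2 in fits on other sample sets, and ranged from 2 to 5 over left-out arrays, with 2 without replicate 1 or 2 of either null, through the loss of vari and Lac. The cause of these moves was not tested. Over all probe sets, the fit on other sample sets called 1401 against 2528 between nulls and wild types, 195 against 384 in all 4 pairs, 715 against 1799 between the stocks and 85 against 174 between the nulls. Same-numbered arrays of different genotypes deviated together with correlations of -0.297 to 0.347 (median 0.066), of which 6 of 18 were over 0.1. For arrays of different number the median was -0.044, and 10 of 36 were over 0.1. Of the arrays, 8 of 12 were closest to their own number. Whether the numbers pair the arrays was not settled, and the main fit did not pair them. The block gave 2 calls in all 4 pairs, 1 between the stocks and 0 between the nulls. Of the 12 probe sets, 4 were under the control level on some array, which limits their precision.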
